A study of Mus musculus with 24 samples.

Results

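Transcripts of CA3 excitatory neurons (the cluster Exc-CA3) were compared between DBA/2J (D2) and C57BL/6J (B6) mice in single-nucleus RNA sequencing (snRNA-seq) of the ventral hippocampus. Only symbols with at least 1 count in each strain were kept, which left 21301 of the 33902 symbols in the table. There were 2 D2 and 2 B6 libraries among the 24 samples of the series. Each library combined tissue from about 2 adult males aged 10 to 16 weeks, with no treatment named, so a library and not an animal was the replicate. Nuclei had been sorted on NeuN and 7-AAD, with neuronal nuclei taken in excess over non-neuronal ones, and sequenced from the 3′ end of transcripts with intronic reads retained. In the deposited nuclei table Exc-CA3 held 733 and 503 nuclei of B6 and 565 and 390 of D2. Their summed counts were 7195661 and 5887083 in B6, and 5581731 and 4267129 in D2.

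CA3 pyramidal neurons receive the mossy fibre input of dentate granule cells on kainate, AMPA and NMDA receptors, excite one another through recurrent collaterals, and send Schaffer collaterals to CA1. Their dense recurrent excitation is held in check by GABA receptors and by voltage-gated and calcium-activated potassium channels. Calcium channels, vesicle proteins and adhesion molecules such as neurexins, teneurins and leucine-rich repeat proteins shape transmitter release and the contacts that these cells form.

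Markers of the cluster were compared between the strains. They were not set against other clusters, so this does not test the label. All 13 CA3 markers were tested, and 12 were not called different between strains. They summed to 5722 and 5310 CPM in B6 and 5663 and 5296 CPM in D2 over all 13. Grik4, the kainate receptor subunit most typical of CA3, had 911 and 818 counts per 1000000 counts (CPM) in B6 and 948 and 843 CPM in D2, so the strains overlapped. Neurod6, a transcription factor of pyramidal neurons, was the exception. It had 63.7 and 53.3 CPM in B6 and 95.5 and 81.5 CPM in D2 (log2 fold change 0.60 ± 0.12, SE, adjusted p = 0.002). Slc17a7, the vesicular glutamate transporter of these cells, lay between 384 and 394 CPM in all 4 libraries. The 5 tested markers of dentate granule cells summed to between 32.9 and 39.1 CPM, and the 5 tested markers of CA1 to between 103 and 113 CPM.

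Expression differed widely between the strains. Of 14802 transcripts with enough counts to test, 3216 differed (21.7%) at an adjusted p under 0.05, 1438 higher in D2 (9.71%) and 1778 lower in D2 (12%). The test was edgeR's quasi-likelihood F test with Benjamini-Hochberg adjustment over all 14802 transcripts. At least a 2-fold difference was met by 1037 of them (7.01%), 413 higher (2.79%) and 624 lower in D2 (4.22%). DESeq2 called 1340 of the 15932 transcripts to which it gave an adjusted p (8.41%), 488 higher (3.06%) and 852 lower (5.35%). Without the requirement of counts in both strains, edgeR called 5241 of 16337 (32.1%), 3129 higher (19.2%) and 2112 lower (12.9%). Log2 CPM of 11780 transcripts correlated at 0.990 within B6 and 0.988 within D2, and at 0.932 to 0.942 across strains. These correlations run across genes, which are not independent replicates. With 2 libraries a strain, an exact permutation test of a single transcript cannot give a p below 0.333, so each p rests on the spread pooled over all transcripts. Of 9666 transcripts that averaged 10 CPM or more, 6148 had D2 libraries that did not overlap the B6 libraries (63.6%), so a lack of overlap was common. Of the 3216 calls, 1417 were also made in each of the 4 fits that left out 1 library.

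**Figure D1:**
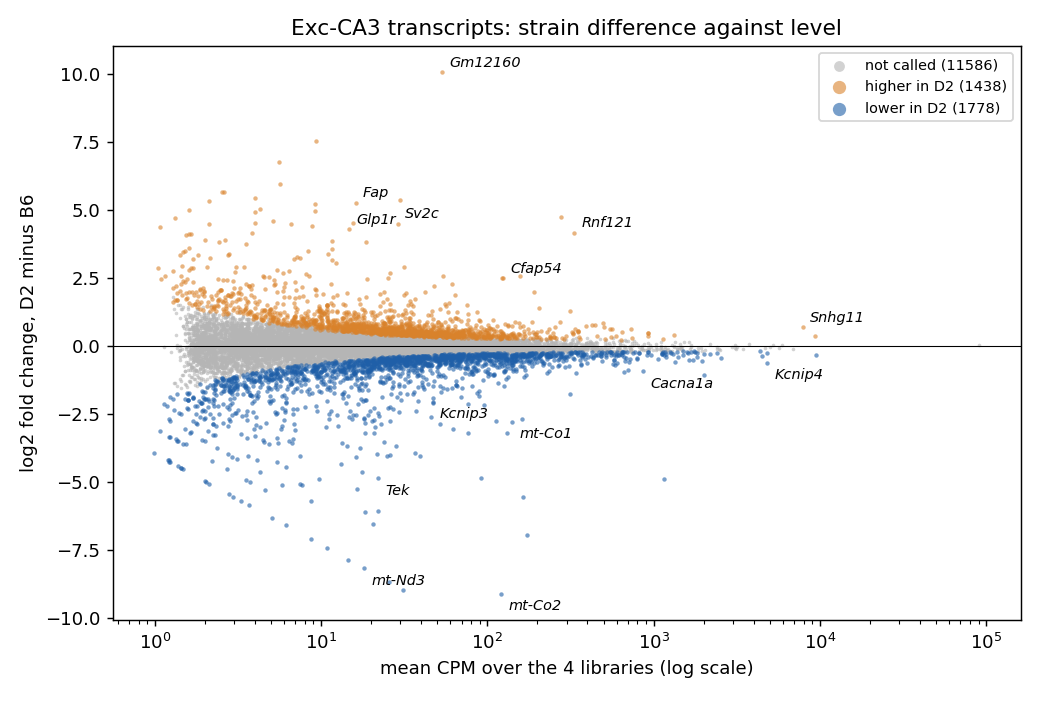
Log2 fold change (D2 minus B6, vertical) of all 14802 tested Exc-CA3 transcripts against their mean CPM over the 4 libraries (horizontal, log scale). Orange points were called higher in D2 (1438), blue points lower (1778), grey points were not called (11586). The farthest points lie below 200 CPM, among them Gm12160 at the top and mt-Co2 at the bottom.

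B6 reads had been mapped to mm10 and D2 reads to an mm10 in which single bases were replaced by the D2 alleles. The lists of counted symbols also differed, with 6544 symbols counted in D2 alone and 1743 in B6 alone. Of the D2-only symbols, 4238 were pseudogenes or unconfirmed models in the GENCODE annotation, against 0 of the B6-only symbols. D2-only symbols held 3.35% and 3.37% of the counts in the D2 libraries, and B6-only symbols held 0.702% and 0.755% of those in the B6 libraries. Strain and the gene list used for counting cannot be told apart in such transcripts, and the following classes show where this bears on the calls. A read that falls on 2 annotated genes of 1 strand is not counted for either gene by the usual rule, so overlapping genes were separated.

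Transcripts that shared their strand and position with a gene counted in D2 alone were called lower in 397 of 1354 cases (29.3%) and higher in 57 (4.21%). Their median log2 fold change was -0.16, against 0.01 over all tested transcripts. Schip1, which encodes an adaptor protein that binds schwannomin, lies in the span of the read-through gene Iqschfp. It had 2338 and 2142 CPM in B6 and 72.1 and 80.6 CPM in D2, where Iqschfp had 202 and 184 counts against 0 in both B6 libraries. Cox16, an assembly factor of cytochrome oxidase, had 166 and 191 CPM in B6 and 6.62 and 5.37 CPM in D2, and it overlaps Gm20498, which had 30 and 23 counts in D2 and 0 in B6. Schip1 and Cox16 were chosen after their values were seen.

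The 11061 transcripts with a single annotated gene and no same-strand overlap had 2226 calls (20.1%), and here the directions were close to even, with 1177 higher (10.6%) and 1049 lower (9.48%) in D2. Fitted on their own, they had 1014 calls higher and 1138 lower, so the larger direction depended on the fit. In the fit of all transcripts, protein-coding genes among them were called higher in 1036 and lower in 685 of 9288 cases. Their median log2 fold change was 0.06. Antisense RNAs went the other way, with 63 higher and 264 lower of 1046 and a median of -0.22. The sources used here do not say how the counting treated the strand of the reads. Whether reads of the gene opposite entered the counts of an antisense RNA was not tested. Calls were spread over the genome. The share called per chromosome ran from 13.5% on chromosome X to 24.6% on chromosome 17. In windows of 10 Mb with at least 20 such transcripts, 205 in all, the median share was 20% and the range 0% to 43.3%.

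The difference also varied with the length of the gene. With these transcripts split by gene length into 5 groups of equal size, the median log2 fold change was 0.15 for genes of 0.168 to 7.58 kb, then 0.12, 0.06 and 0.02, and -0.09 for genes of 58.9 to 1574 kb. The group of shortest genes had 308 calls higher and 189 lower in D2, and the longest 131 higher and 347 lower. Between the libraries of 1 strain, the medians stayed between -0.04 and 0.04 in every group. A fit that removed this trend called 2805 of 14582 transcripts, 1237 of them higher in D2. Of the calls over all transcripts, 3146 were tested in that fit and 2492 were called again.

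**Figure D2:**
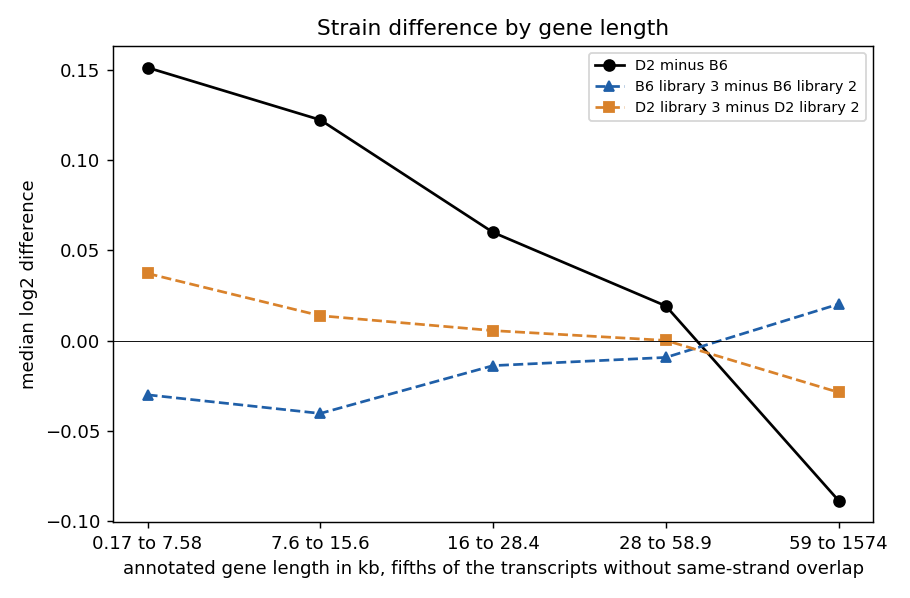
Median log2 difference (vertical) in 5 equal groups of the 11061 transcripts without same-strand overlap, ordered by annotated gene length in kb (horizontal). The black line is D2 minus B6 and falls from 0.15 to -0.09, while the dashed lines compare the 2 libraries of each strain and stay within 0.04 of zero.

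The 10 protein-coding transcripts with the largest rise in D2, among those averaging 10 CPM or more and free of overlap, were Fap, Glp1r, Rnf121, Cyp2j11, Lig4, Zfp951, Mlycd, Sav1, Asna1 and Cfap54. Each was between 5.57 and 38.4 times higher in D2, with adjusted p from 4.7e-13 to 8.9e-07. Rnf121, which encodes a ubiquitin ligase of the secretory pathway, had the highest level. It lies at chr7:102019137-102065469 (mm10) and had 35.1 and 35.7 CPM in B6 and 650 and 615 CPM in D2, with a log2 fold change of 4.16 ± 0.09 (SE). The 2 libraries of each strain were close together, and the strains were far apart. Cfap54, a gene of the cilium axoneme at chr10:92775619-93081618, had 33.4 and 42.5 CPM in B6 and 199 and 221 CPM in D2, with a log2 fold change of 2.48 ± 0.12.

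Glp1r encodes the receptor of the gut and brainstem peptide GLP-1. It had 1.73 and 1.05 CPM in B6 and 29.8 and 26.2 CPM in D2 (log2 fold change 4.29 ± 0.26), which in B6 rested on 12 and 6 counts. Fap, a membrane serine protease of fibroblasts, had 1.01 and 0.523 CPM in B6 and 23.2 and 39.9 CPM in D2 (5.26 ± 0.38). Enzymes made up several of the others. Mlycd, the malonyl-CoA decarboxylase that relieves the block on fatty acid oxidation, had 7.48 and 7.32 CPM in B6 and 56.5 and 54.9 CPM in D2. Lig4, the DNA ligase of end joining, had 2.44 and 1.39 CPM in B6 and 22.8 and 17.5 CPM in D2. Sav1, a scaffold of the Hippo pathway, had 16.7 and 14.6 CPM in B6 and 90.3 and 94.2 CPM in D2. Asna1, the ATPase that delivers tail-anchored proteins to the endoplasmic reticulum, had 7.62 and 7.67 CPM in B6 and 45.6 and 40.9 CPM in D2.

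Just outside these 10, and chosen after their values were seen, were Lpl and Col11a1. Lpl, the lipoprotein lipase, had 19.0 and 14.6 CPM in B6 and 79.7 and 76.6 CPM in D2 (2.20 ± 0.13, adjusted p = 2.5e-08). Col11a1, a fibrillar collagen chain, had 64.5 and 92.0 CPM in B6 and 301 and 309 CPM in D2 (1.97 ± 0.12, adjusted p = 4.2e-08). The strains did not overlap in either.

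The 10 protein-coding transcripts with the largest fall in D2 were mt-Co2, mt-Nd3, Tek, Vinac1, Arhgdib, Rpl29, Olfr33, mt-Co1, Snrpf and Fggy. Of these, mt-Co2, mt-Nd3, mt-Co1, Rpl29 and Snrpf carry a stretch of at least 90 bases that is at least 97% identical to an annotated pseudogene. Tek, the angiopoietin receptor, carries none. It lies at chr4:94739289-94874976 and had 42.3 and 43.0 CPM in B6 and 2.39 and 0.234 CPM in D2 (-4.87 ± 0.30, adjusted p = 3.6e-08). Arhgdib, a regulator of small GTPases, had 37.1 and 27.2 CPM in B6 and 2.76 and 1.87 CPM in D2. Vinac1, of the vinculin and catenin family, had 26.2 and 24.4 CPM in B6 and 1.1 and 1.4 CPM in D2. Olfr33, an olfactory receptor gene, had 34.5 and 46.5 CPM in B6 and 5.52 and 5.37 CPM in D2. Fggy, a carbohydrate kinase, had 38.5 and 35.2 CPM in B6 and 4.97 and 8.88 CPM in D2.

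Without the transcripts that have such copies, a choice made after the values were seen, Dchs2, Tmem267, Mapk4 and Mcmdc2 were among those that completed the 10. Dchs2, a large cadherin, had 63.7 and 58.4 CPM in B6 and 12.3 and 18.0 CPM in D2. Each of these 4 was between 3.37 and 4.10 times lower in D2.

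**Figure D3:**
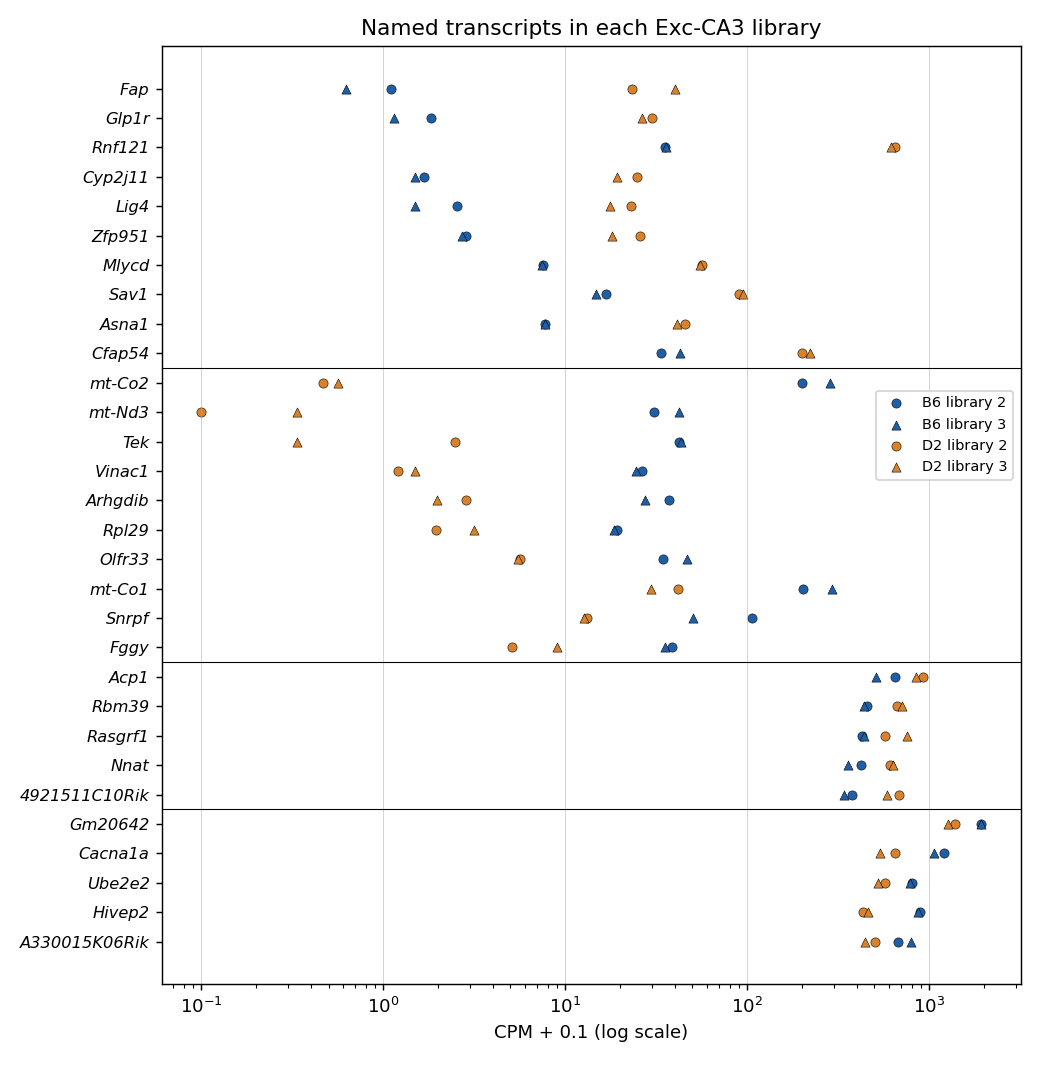
CPM plus 0.1 (horizontal, log scale) of the 10 protein-coding transcripts with the largest rise and fall in D2 and of the 5 most abundant transcripts called in each direction, without same-strand overlap. Blue symbols are the B6 libraries and orange symbols the D2 libraries. The strains did not overlap for any row, which the choice of rows required, and Rnf121 is the one strong rise that ends above 500 CPM.

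Among transcripts with a log2 fold change of at least 0.5 in size, the 5 most abundant in each direction differed by less than 2-fold. Higher in D2 were Acp1, Rbm39, Rasgrf1, Nnat and the antisense RNA 4921511C10Rik. Rasgrf1, a calcium-responsive exchange factor for Ras, had 430 and 437 CPM in B6 and 575 and 756 CPM in D2 (0.62 ± 0.10, adjusted p = 0.00061). Nnat, the membrane protein neuronatin, had 421 and 358 CPM in B6 and 610 and 634 CPM in D2 (0.67 ± 0.08). Both are paternally expressed imprinted genes. Rbm39, a splicing factor, had 453 and 440 CPM in B6 and 662 and 708 CPM in D2. Acp1, a small tyrosine phosphatase with a pseudogene copy, had 646 and 510 CPM in B6 and 925 and 847 CPM in D2.

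Lower in D2 were Cacna1a, Hivep2, Ube2e2 and the antisense RNAs Gm20642 and A330015K06Rik. Cacna1a encodes the pore of the P/Q-type calcium channel that drives fast transmitter release, and lies at chr8:84388440-84640246. It had 1204 and 1065 CPM in B6 and 648 and 536 CPM in D2 (-0.94 ± 0.09, adjusted p = 3.4e-06). Hivep2, a zinc-finger transcription factor at chr10:13966075-14151374, had 889 and 865 CPM in B6 and 435 and 461 CPM in D2 (-0.97 ± 0.07, adjusted p = 2.1e-07). Ube2e2, a ubiquitin-conjugating enzyme, had 805 and 785 CPM in B6 and 570 and 524 CPM in D2.

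Noncoding RNAs differed strongly as well. Gm12160, a long intergenic RNA at chr11:45160943-45213656, had 1 count over both B6 libraries and 1055 over both D2 libraries. The ratio per library size was 1378, with an exact 95% interval of 247 to 54491 for counting error only. Gm20324, an antisense RNA, had 1.58 and 1.22 CPM in B6 and 66.0 and 50.5 CPM in D2, and 4930568G15Rik had 2.59 and 2.27 CPM in B6 and 34.0 and 35.7 CPM in D2. In the other direction, Gm11290 had 42.3 and 19.5 CPM in B6 and 2.39 and 1.17 CPM in D2. Gm44649 and 2310002F09Rik were 11.8 and 11.6 times lower in D2.

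The 16 functional lists of neuronal genes held 258 tested members, of which 15 were called higher and 51 lower in D2 (25.6%, against 21.7% over all tested transcripts). Their median log2 fold change was -0.09, against 0.01 over all. Among the 155 without same-strand overlap, 12 were higher and 21 lower (21.3%, against 20.1%), with a median of -0.03. The share called was thus close to the background. Of the 66 calls, 38 were also made in each of the 4 fits without 1 library, and members named below are among those 38 unless their values are given with an adjusted p from such a fit. DESeq2 called none of Cacna2d3, Cacng3, Dcn, Etv1, Fkbp5, Grm8, Kcnc2 and Shisa7, with adjusted p of 0.061 to 0.31.

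Ionotropic glutamate receptors had calls in the AMPA list only, and each list was small. Beside the counts below, 21.7% of all tested transcripts were called. None of 7 kainate receptor genes passed, with log2 fold changes from -0.21 to 0.43, and none of 5 NMDA receptor genes, from -0.14 to 0.17. Grik2, the main pore-forming kainate subunit of mossy fibre synapses, had 1272 and 1245 CPM in B6 and 1171 and 1112 CPM in D2 (adjusted p = 0.15). Grin1, the obligate NMDA subunit, had 389 and 386 CPM in B6 and 402 and 358 CPM in D2. In the metabotropic list 1 of 6 passed, Grm8 (16.7%, against 21.7% over all). Only 1 of these 6 genes had no same-strand overlap. With the length correction the log2 fold change of Grm8 was -0.16 (adjusted p of 0.33). In the AMPA receptor list 3 of 15 passed (20%, against 21.7% over all). The auxiliary subunits Cacng3 and Shisa9 had log2 fold changes of -0.80 and -0.40 and Shisa7 of 0.38, and each lost its call without at least 1 library. The adjusted p of Cacng3 was 0.054 to 0.13 without B6 library 2, B6 library 3 or D2 library 3. That of Shisa9 was 0.065 without B6 library 3 or D2 library 2, and that of Shisa7 was 0.097 to 0.18 without B6 library 3 or either D2 library. Among 6 metabotropic receptor genes, all had a log2 fold change below 0, from -0.52 to -0.15, and Grm8 passed (-0.32 ± 0.11, adjusted p = 0.041, and 0.11 to 0.29 without either B6 library or D2 library 3).

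Among 13 GABA receptor genes, 3 were lower in D2 and none higher (23.1%, against 21.7% over all). Gabra5, the subunit of extrasynaptic receptors in CA1 and CA3, had 137 and 139 CPM in B6 and 105 and 91.8 CPM in D2 (-0.49 ± 0.09, adjusted p = 0.002). The median of the list was -0.17.

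Potassium channel genes were lower in D2 in 8 of 32 cases and higher in 1 (28.1%, against 21.7% over all). Of the 21 without same-strand overlap, 4 were lower and 1 higher (23.8%, against 20.1%). Kcnip3, a calcium sensor that binds Kv4 channels, differed most in size, with 81.4 and 69.2 CPM in B6 and 16.9 and 19.9 CPM in D2 (-2.05 ± 0.14, adjusted p = 7.6e-08). Kcnip4, a related sensor and one of the most abundant transcripts of these nuclei, had 5859.6 and 5843 CPM in B6 and 3863 and 3650.4 CPM in D2 (-0.64 ± 0.06, adjusted p = 1.6e-06). Both overlap another gene on their strand. Kcnc2 and Kcnh1, pore subunits without such overlap, had log2 fold changes of -0.67 ± 0.14 and -0.58 ± 0.10, but DESeq2 gave Kcnc2 an adjusted p of 0.19. Kcnn2, a calcium-activated channel, had 633 and 663 CPM in B6 and 525 and 499 CPM in D2. Its log2 fold change of -0.34 became -0.19 with the length correction (adjusted p of 0.063).

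Of 24 sodium, calcium and HCN channel genes, 3 were lower in D2 and none higher (12.5%, against 21.7% over all). Beside Cacna1a these were the auxiliary subunits Cacna2d1 (-0.37 ± 0.08) and Cacna2d3 (-0.24 ± 0.07, adjusted p = 0.079 to 0.12 without either B6 library or D2 library 3). With the length correction the log2 fold change of Cacna2d3 was -0.07 (adjusted p of 0.52). The other 21 tested members were not called. Cacna2d1 and Cacna2d3 each overlap another gene on their strand. Of the 19 members without such overlap, 1 was lower and none higher (5.26%, against 20.1%).

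Synapse organizers, the list with the most tested members, had 16 lower and 2 higher in D2 of 42 tested (42.9%, against 21.7% over all). The leucine-rich repeat proteins Lrrtm3 and Lrrtm4, postsynaptic partners of neurexins and heparan sulphate, were both lower. Lrrtm3 had 40.5 and 39.2 CPM in B6 and 22.3 and 21.7 CPM in D2 (-0.86 ± 0.13, adjusted p = 0.00024). Lrrtm4 had 736 and 713 CPM in B6 and 439 and 442 CPM in D2 (-0.72 ± 0.07, adjusted p = 4.2e-06), and it overlaps Gm44240, counted in D2 alone. Flrt3, a ligand of latrophilins, had 234 and 232 CPM in B6 and 159 and 139 CPM in D2 (-0.64 ± 0.09, adjusted p = 0.00013). Igsf8, a partner of tenascin-R in CA3, had 64.8 and 59.8 CPM in B6 and 38.6 and 42.1 CPM in D2 (-0.63 ± 0.11).

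The long genes Cntnap2, Ptprd and Nrxn3 had log2 fold changes of -0.57, -0.60 and -0.38, and each overlaps another gene on its strand. Of the 24 organizers without same-strand overlap, 5 were lower and 2 higher (29.2%, against 20.1%). Their median was 0.02, and most calls of the list fell on genes with an overlap. A fit over genes without overlap called 6 members of this list, a fit that removed the trend with gene length called 12, and a fit without B6 library 2 called 11.

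Vesicle release genes were called in both directions, with 4 higher and 3 lower in D2 of 29 (24.1%, against 21.7% over all). Snap25, the plasma membrane SNARE, had 765 and 772 CPM in B6 and 1010.1 and 1145 CPM in D2 (0.49 ± 0.07, adjusted p = 0.0003). Cplx2, a complexin that clamps SNARE complexes, had 58.9 and 54.7 CPM in B6 and 79.5 and 81.1 CPM in D2 (0.50 ± 0.10, adjusted p = 0.0027). Sv2c, a vesicle glycoprotein, had 2.44 CPM in both B6 libraries and 54.3 and 56.8 CPM in D2 (4.49 ± 0.18, adjusted p = 3.4e-10), and it overlaps another gene. Pclo, a giant scaffold of the active zone, had a log2 fold change of -0.34 ± 0.07, which became -0.20 with the length correction (adjusted p of 0.061).

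**Figure D4:**
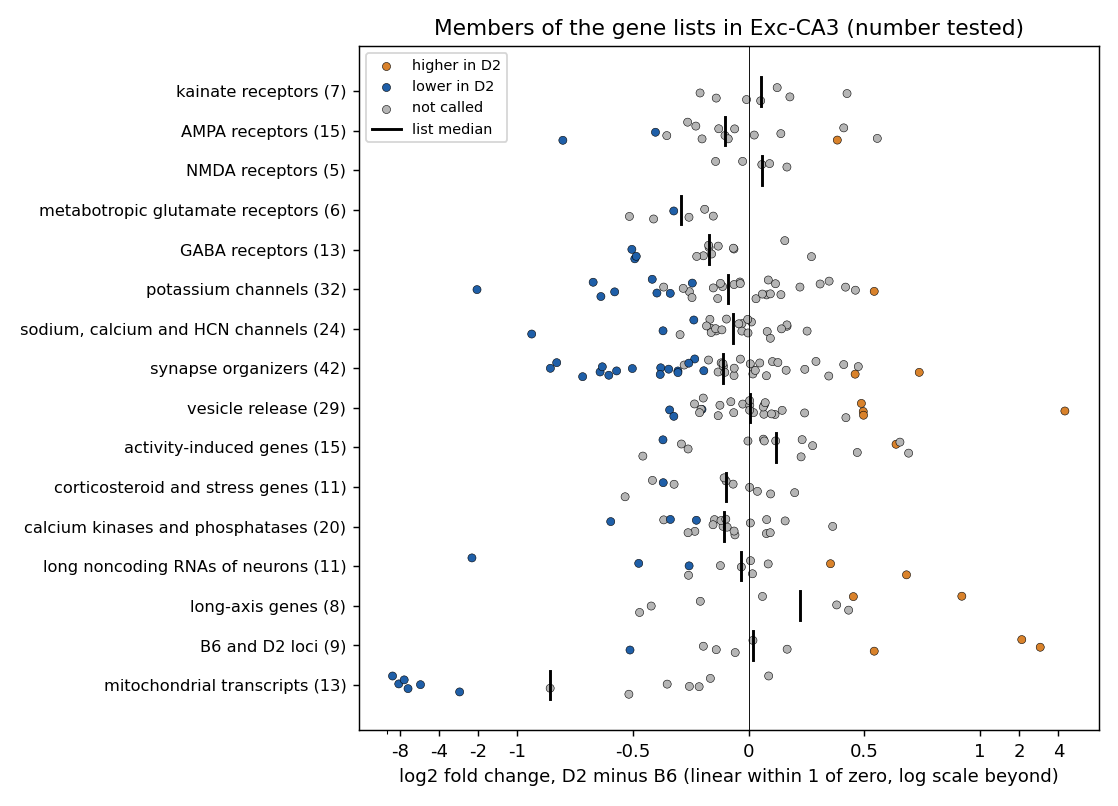
Log2 fold change (D2 minus B6, horizontal, linear within 1 of zero and log scale beyond) of the tested members of the 16 functional lists. Orange points were called higher in D2, blue points lower and grey points not called, and black bars mark list medians. Synapse organizers have 16 blue and 2 orange points, kainate and NMDA receptors have none, and the mitochondrial list reaches -9.12.

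The next lists had between 9.09% and 25% of their tested members called, against 21.7% over all. Of 20 calcium kinases and phosphatases, 3 were lower, among them Camkk1, an activator of CaM kinases (-0.60 ± 0.12). Of 15 activity-induced genes 1 was higher and 1 lower, the latter Inhba, a subunit of activin (-0.37 ± 0.08). Of 11 corticosteroid and stress genes Fkbp5, a chaperone of the glucocorticoid receptor, passed (-0.37 ± 0.12, adjusted p = 0.035, and 0.094 to 0.36 without either B6 library or D2 library 3). Of 8 genes that vary along the long axis of the hippocampus, Dcn and Etv1 were higher (0.92 ± 0.22 and 0.45 ± 0.13, with adjusted p of 0.067 and 0.18 without B6 library 2, and 0.24 for Etv1 without D2 library 3). Dcn is also on the CA1 and vascular marker lists. The summed vascular markers were higher in D2, but Dcn is 1 of the 3 tested, so that sum is not separate from Dcn. The part of this link in the result was not tested.

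Abundant long noncoding RNAs of neurons were called in both directions. Snhg11 had 6283 and 5892 CPM in B6 and 9735 and 9802 CPM in D2 (0.68 ± 0.06, adjusted p = 5.5e-07). Meg3, expressed from the maternal allele, had 8315 and 8091 CPM in B6 and 10391 and 10574 CPM in D2 (0.35 ± 0.05, adjusted p = 0.00022). Snhg14, the host transcript of the Angelman region, had 802 and 881 CPM in B6 and 584 and 626 CPM in D2 (-0.48 ± 0.07). All of these overlap other genes.

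Of 9 tested genes at loci known to differ between B6 and D2, 3 were higher and 1 lower (44.4%, against 21.7% over all). Alad, the haem synthesis enzyme delta-aminolevulinate dehydratase, and its neighbour Hdhd3 lie on chromosome 4 in a segment known to be duplicated in D2. Alad had 4.89 and 1.92 CPM in B6 and 15.3 and 15.0 CPM in D2 (2.09 ± 0.29, adjusted p = 0.00014). Hdhd3 had 0.719 and 0.697 CPM in B6 and 5.52 and 5.37 CPM in D2 (2.90 ± 0.42, adjusted p = 0.00017). Mpdz, a multi-PDZ scaffold linked to seizure severity during drug withdrawal in these strains, had 118 and 130 CPM in B6 and 93.1 and 80.1 CPM in D2 (-0.51 ± 0.10). Of the 6 with a single annotated gene and no same-strand overlap, 3 were higher and none lower (50%, against 20.1%). Mpdz was not among these 6.

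Mitochondrial transcripts were called lower in 6 of 13 cases (46.2%, against 12% over all). Of the 7 with a near-identical pseudogene copy 6 were called, and of the 6 without one, none was in the fit of all libraries. The called transcripts were mt-Co1, mt-Co2, mt-Co3, mt-Atp6, mt-Nd3 and mt-Nd4l, subunits of respiratory complexes and of the ATP synthase. The other with a copy, mt-Nd4, had a log2 fold change of -0.52 (adjusted p = 0.072). Mt-Co2 had 200.1 and 285 CPM in B6 and 0.368 and 0.467 CPM in D2. For mt-Nd3, 454 counts in B6 stood against 1 in D2, a ratio per library size of 348 (exact 95% interval 62.1 to 13756, counting error only). By contrast mt-Nd1 had 89.3 and 128 CPM in B6 and 121 and 70.1 CPM in D2, mt-Nd2 had 144 and 208 CPM in B6 and 191 and 109 CPM in D2, and mt-Cytb had 116 and 208 CPM in B6 and 159 and 109 CPM in D2. The strains overlapped for these 3, and none was called with all 4 libraries. Without D2 library 2 all 3 were called lower, mt-Nd1 by -0.63 (adjusted p = 0.0001), mt-Nd2 by -0.68 (adjusted p = 1.4e-06) and mt-Cytb by -0.56 (adjusted p = 0.00014), and mt-Cytb also without B6 library 2 (adjusted p = 0.019). Over the 773 tested transcripts with a pseudogene copy and no same-strand overlap, 109 were higher (14.1%) and 54 lower in D2 (6.99%), against 10.6% and 9.48% of all transcripts without overlap.

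Transcripts of other cell types were present at low levels and differed in part. Beside the counts below, 9.71% of all tested transcripts were called higher and 12% lower in D2. Oligodendrocyte markers summed to 120 and 114 CPM in B6 and 75.4 and 73.1 CPM in D2, and 3 of 5 were called lower in D2. None of the 5 was at 0. In the same libraries oligodendrocyte nuclei were 11% of all nuclei in B6 and 7.30% in D2. Microglial markers summed to 308 and 296 CPM in B6 and 233 and 218 CPM in D2, with 2 of 5 called lower, P2ry12 (-0.37 ± 0.08) among them, and microglial nuclei were 3.91% in B6 and 3.12% in D2. Astrocyte markers had no call among 5, with sums of 226 to 262 CPM. Vascular markers went the other way, with sums of 10.1 and 11.5 CPM in B6 and 20.2 and 20.3 CPM in D2, and 2 of 3 tested were called higher, Dcn (0.92 ± 0.22) and Flt1 (1.65 ± 0.46, adjusted p = 0.02, and 0.28 without D2 library 2, 0.13 without B6 library 3 and 0.20 by DESeq2). Trp73, 1 of 2 tested Cajal-Retzius markers, had 1.44 and 1.22 CPM in B6 and 6.81 and 5.37 CPM in D2 (2.18 ± 0.36, adjusted p = 0.00063). The other, Reln, went the opposite way, with a log2 fold change of -0.67, and was not called. The part of free or foreign RNA in these differences was not tested.

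Accessibility at gene starts was compared in separate Exc-CA3 nuclei of the same strains, profiled by single-nucleus ATAC sequencing (snATAC-seq) in 2 D2 and 2 B6 libraries. A transcript was paired with the peak nearest to its annotated start within 500 bp, which gave 12721 transcripts and 11342 distinct peaks. Of these peaks 948 differed (8.36%), 818 higher (7.21%) and 130 lower in D2 (1.15%), by edgeR's quasi-likelihood test over all 298129 tested peaks. The median log2 fold change of start-site peaks was 0.10, against 0.00 over all peaks. Transcripts lower in D2 without overlap had a peak called lower in 39 of 770 cases (5.06%) and higher in 42 (5.45%). Transcripts higher in D2 had a peak called higher in 135 of 1038 cases (13.0%) and lower in 6 (0.578%). For transcripts that were not called, 573 of 7810 peaks were higher (7.34%) and 52 lower (0.666%).

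At a transcript difference of at least 2-fold, 55 of 259 peaks were higher for transcripts higher in D2 (21.2%) and 5 were lower (1.93%). For transcripts lower in D2, 31 of 228 peaks were lower (13.6%) and 14 higher (6.14%). For uncalled transcripts of that size, 7 of 81 peaks were higher (8.64%) and 4 lower (4.94%). Over all transcripts, with overlaps, 223 start-site peaks were called in the direction of their transcript. That count rested on all 4 libraries. It was 22 without D2 library 2, 17 without D2 library 3, 125 without B6 library 2 and 111 without B6 library 3. Most strong transcript differences had no called peak at their start. The Rnf121 peak had a log2 fold change of 0.02 (adjusted p = 0.96), and that of Hivep2 0.01.

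**Figure D5:**
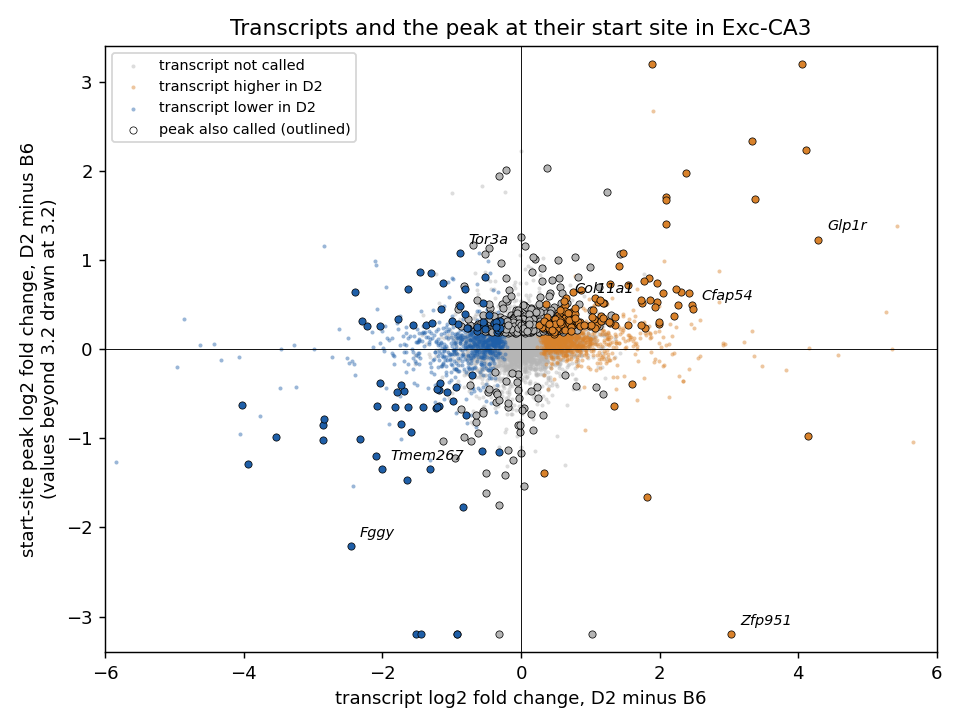
Log2 fold change of the start-site peak (vertical) against that of the transcript (horizontal), both D2 minus B6, for 9618 Exc-CA3 transcripts without same-strand overlap. Colours give the call of the transcript and outlined points mark peaks that were called as well. Peaks beyond 3.2 are drawn at 3.2 (9 points), and 3 points lie beyond the horizontal range. Glp1r stands at the upper right, Fggy and Tmem267 at the lower left, and Zfp951 at the lower right.

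Among the named genes, Fggy, Alad, Tmem267 and Glp1r had called start-site differences of more than 2-fold in the direction of the transcript. The Glp1r peak had 4.77 and 3.95 CPM in B6 and 8.80 and 11.6 CPM in D2 (1.23 ± 0.15, adjusted p = 3.1e-11). The Fggy peak had 19.4 and 20.1 CPM in B6 and 3.82 and 4.58 CPM in D2 (-2.21 ± 0.13, adjusted p = 1.5e-35). The peak of Tmem267, a membrane protein, had 38.6 and 50.5 CPM in B6 and 17.6 and 17.3 CPM in D2 (-1.34 ± 0.08, adjusted p = 1.8e-32). Smaller rises were found at Col11a1 (0.53 ± 0.10), Cfap54 (0.45 ± 0.10), Lpl (0.38 ± 0.08) and Rasgrf1 (0.24 ± 0.07), and a larger one, of 1.67 ± 0.08, at Alad.

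The reverse occurred as well, in 48 transcripts without overlap. Zfp951, a zinc-finger gene, rose from 2.73 and 2.61 CPM in B6 to 25.8 and 18.0 CPM in D2 in RNA, while its start-site peak had 60 counts over both B6 libraries and 0 over both D2 libraries. The peak was at least 22.9 times lower in D2, taking a floor of 3 counts over the group. Tor3a, a torsin ATPase chosen after its values were seen, had 45.1 and 41.0 CPM in B6 and 21.0 and 26.2 CPM in D2 in RNA, and its peak had 8.99 and 8.59 CPM in B6 and 18.7 and 18.6 CPM in D2.

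The reference promoter sequences of 3 genes with the same direction in RNA and start-site accessibility and of Zfp951, with opposite directions, chosen after their values were seen, are shown from RefSeq (GRCm38.p6), each from 250 bases before to 50 after a gene start and overlapping the peak. They are the reference strain's bases, and capitals mark CpG dinucleotides (the letters CG, which read the same on both strands). Glp1r lies at chr17:30901617-30901916 (+ strand) and holds 29 CpGs. Fggy lies at chr4:95557257-95557556 (+ strand) with 10, Tmem267 at chr13:119487836-119488135 (+ strand) with 22, and Zfp951 at chr5:104859978-104860277 (- strand) with 8.
Glp1r: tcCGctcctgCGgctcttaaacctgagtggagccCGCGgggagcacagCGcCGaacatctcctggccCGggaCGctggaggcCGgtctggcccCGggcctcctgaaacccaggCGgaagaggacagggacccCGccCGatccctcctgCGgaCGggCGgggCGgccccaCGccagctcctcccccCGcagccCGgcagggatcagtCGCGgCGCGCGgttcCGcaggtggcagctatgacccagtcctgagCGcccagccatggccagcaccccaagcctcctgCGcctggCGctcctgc
Fggy: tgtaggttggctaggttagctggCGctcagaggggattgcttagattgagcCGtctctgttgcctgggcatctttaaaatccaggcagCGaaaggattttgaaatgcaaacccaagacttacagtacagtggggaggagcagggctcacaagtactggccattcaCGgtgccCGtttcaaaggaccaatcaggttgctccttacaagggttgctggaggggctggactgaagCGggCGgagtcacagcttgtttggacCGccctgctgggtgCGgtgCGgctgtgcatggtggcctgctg
Tmem267: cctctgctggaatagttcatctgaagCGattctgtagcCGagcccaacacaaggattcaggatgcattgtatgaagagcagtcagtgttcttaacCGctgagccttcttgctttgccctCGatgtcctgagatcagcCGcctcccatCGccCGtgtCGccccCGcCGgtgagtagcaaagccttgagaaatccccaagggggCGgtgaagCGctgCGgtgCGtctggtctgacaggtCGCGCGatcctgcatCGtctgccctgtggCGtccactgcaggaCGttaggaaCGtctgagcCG
Zfp951: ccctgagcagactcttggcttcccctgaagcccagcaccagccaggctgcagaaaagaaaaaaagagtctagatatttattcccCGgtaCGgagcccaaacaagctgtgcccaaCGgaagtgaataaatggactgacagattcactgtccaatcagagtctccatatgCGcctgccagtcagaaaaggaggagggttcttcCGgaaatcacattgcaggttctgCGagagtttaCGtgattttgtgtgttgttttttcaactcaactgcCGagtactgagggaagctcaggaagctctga

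At least 1 CpG stood in 94.6% of all 32851 promoters of this length, with a median of 7. Promoters of tested transcripts had a median of 19. Among transcripts without overlap the median was 20 for those higher in D2, 13 for those lower in D2 and 20 for those not called. The Glp1r promoter was thus above and the Zfp951 promoter below the median of each group of tested transcripts.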

How the data were processed

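The authors aligned snRNA-seq reads (Cell Ranger 6.0.2, intronic reads kept) to mm10 for B6 and to an mm10 with D2 single-base alleles for D2, removed doublets, clustered nuclei with Seurat 4.0.5 and deposited raw counts summed per cell type and library. The snATAC-seq counts per peak, on a set of peaks merged over libraries, were made with Cell Ranger ATAC 2.0.0 and deposited in the same form. Library numbers in the tables (2 and 3) differ from those in the labels, so columns were assigned to strains only, and the columns of all other cell types, 64 in the snRNA-seq and 56 in the snATAC-seq table, were left out. Nothing in the labels says whether animals were shared, so p-values measure the spread between libraries.

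Counts were fitted with edgeR 4.0.16 (TMM, filterByExpr, quasi-likelihood F test, D2 against B6, R 4.3.3), with library size taken over symbols counted in both strains. Fold changes are log2, with SE derived from the F statistic. CPM is per 1000000 of the TMM-scaled library size. Peaks with at least 10 counts were fitted likewise. Coverage behind each value is its count, and totals per peak library were 14193352 to 21265101. On simulated data for this comparison (14802 transcripts, 200 changed), edgeR recovered 88% of 2-fold and 100% of 4-fold changes, and 2.59% of calls were false. For peaks (298129 features) it recovered 56% and 99%, and 6.06% of calls were false. The changed features were drawn only from well-counted ones, and far fewer changed than were called in the data. All features had the same dispersion, in transcripts and peaks alike. These rates hold for that setting and do not cover features with few counts. DESeq2 1.42.0, other scalings and filters, the replicate block and leaving out each library were tried as alternatives. Positions and overlaps come from GENCODE vM21 on mm10. Near-identical pseudogene copies were found with blastn 2.17.0 (at least 97% identity over at least 90 bases).

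The transcripts named are, among called transcripts that averaged 10 CPM or more with no overlap between the strains' libraries, 1 annotation entry and no same-strand overlap, the 10 protein-coding and 3 noncoding with the largest change each way, and the 5 most abundant each way at a log2 change of at least 0.5, together with list members. Lists, members and rules were chosen with earlier results of these data known. Comparisons of CA3 with CA1 and dentate neurons were planned and not run, since only the Exc-CA3 columns, 2 a strain in each table, were assigned to a group. Results of some transcripts are not reported here.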

Additional observations from a re-analysis of the deposited data

How the results depend on the processing

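The 3216 calls became 1340 with DESeq2 (5369 transcripts without an adjusted p left out), 5241 without the requirement of counts in both strains and 2003 without overlapping genes and pseudogene copies, an alternative chosen after seeing the data, as was the length correction. Their share higher in D2, 44.7%, became 59.7% over all symbols. The 1037 calls of at least 2-fold became 610 with DESeq2, 2647 over all symbols, 675 without overlapping genes and 636 without those and pseudogene copies. The 76 distinct members called over all lists, markers included, became 49 with DESeq2, 45 without overlapping genes and 37 without those and pseudogene copies. The 223 start-site peaks called with their transcript became 49 with DESeq2. The fits without overlapping genes tested fewer transcripts, and the fit over all symbols added symbols with counts in 1 strain alone. How far this accounts for the changed counts was not tested, and neither was the cause for DESeq2. RLE scaling, the filters on counts, library size over all symbols, the length correction and the 200 bp window left each count within 1.5 times.

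Leaving out 1 library gave 2059 to 2847 calls, 849 to 1046 of at least 2-fold, 57 to 93 list members and 17 to 125 start-site peaks. The fewest transcript calls came without B6 library 3 and the fewest start-site peaks without D2 library 3. Deviations of libraries with the same number hardly correlated across genes (0.033 in RNA, 0.028 in peaks). This cannot show whether such libraries shared a batch. In snRNA-seq the share of Exc-CA3 nuclei fell from library 2 to 3 in both strains (8.42% to 6.40% in B6, 7.06% to 6.18% in D2). That of oligodendrocytes rose in both (9.69% to 12.4% in B6, 6.68% to 8.08% in D2). In snATAC-seq neither share moved the same way in both strains. With the replicate block the counts were 3727, 1069, 98 and 287. No called transcript changed sign in any fit. Without 1 library, the log2 fold changes of uncalled transcripts spanned 0 for Grik4 (-0.034 to 0.14), Grin1 (-0.11 to 0.056), mt-Nd1 (-0.63 to 0.16), mt-Nd2 (-0.68 to 0.12) and mt-Cytb (-0.62 to 0.22), and that of Grik2 was 0.022 with the length correction. The contrasts of CA3 with CA1 and dentate neurons, and their fits with and without the library term, were not run.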
